A study of Triticum aestivum with 8 samples.

Results

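Accessible chromatin of leaves was set against that of shoot apices in bread wheat (Triticum aestivum), cultivar AiKang58, using 1 ATAC-seq peak list per tissue. Both tissues came from untreated 2-week-old seedlings kept at 22 °C for 16 h of light and at 19 °C for 8 h of dark. The 2 lists stand for 4 of the 8 libraries of the series, 2 per tissue, and hold 123032 leaf peaks and 131949 shoot apex peaks. A peak was called shared when it overlapped a peak of the other list by at least 1 bp, and otherwise specific to leaf or to apex. The lists give a chromosome, a start and an end for each peak and nothing else, so no value exists per library, no spread between replicates can be given and no difference between the tissues was tested. Sequencing depth is unknown, and a specific peak is one that the other list does not hold, which does not show that the site is closed in the other tissue. The lists name no genes, so the tissue labels could not be checked against marker genes, and no sequence is shown because the labels and files do not name the genome build.

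In ATAC-seq a transposase inserts sequencing adapters into DNA that is not covered by nucleosomes, so peaks mark promoters, enhancers and other regulatory DNA in use or open to use. A grass leaf consists mostly of mature photosynthetic cells. The shoot apex of a seedling holds the apical meristem, a small dome of dividing stem cells, together with the young leaves that grow around it. Bread wheat is a hexaploid whose A, B and D subgenomes each bring 7 chromosomes, and related chromosomes of the subgenomes form a homoeologous group (1A, 1B and 1D, for example). Wheat genes lie densest toward the chromosome ends, and the middle of each chromosome is largely made of transposable elements. AiKang58 is known to carry a rye chromosome arm in place of the short arm of 1B.

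More peaks were specific to the apex than to the leaf, and specific peaks were narrow in both tissues. Of the leaf peaks, 38832 (31.6%, 95% Wilson interval 31.3 to 31.8) had no apex peak. Of the apex peaks, 49325 (37.4%, 37.1 to 37.6) had no leaf peak. These intervals, like the others below, cover counting error over peaks only. Shared peaks were near equal in number (84200 leaf, 82624 apex), since most are pairs of 1 leaf and 1 apex peak. The excess of apex-specific peaks therefore largely restates the longer apex list. With the apex list cut to its 123032 widest peaks there were 41058 leaf-specific and 42928 apex-specific peaks. Equal lengths make the excess smaller by construction. The median width was 350 bp for leaf-specific peaks (quartiles 275 and 525) and 375 bp for apex-specific peaks (275 and 525). Shared peaks were wider, with a median of 600 bp in leaves (375 and 975) and 700 bp in apices (425 and 1150). The specific peaks of the tissues thus had nearly the same widths, and it was at shared sites that the apex peaks were the wider ones.

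The share of specific peaks fell steadily with width. Among peaks of up to 300 bp, 52.1% of leaf peaks (51.5 to 52.7) and 66.2% of apex peaks (65.6 to 66.8) were specific. Above 500 and up to 750 bp the shares were 25.2% (24.7 to 25.8) and 32.0% (31.4 to 32.6). Above 1000 and up to 2000 bp they were 9.27% (8.85 to 9.72) and 9.75% (9.36 to 10.2), with overlapping intervals. Above 2000 bp the order turned, with 5.35% of leaf peaks (4.74 to 6.04) and 3.49% of apex peaks (3.08 to 3.96). Wide peaks also meet another peak more easily by their size alone. Peaks over this width were few among specific peaks, 249 of the leaf and 233 of the apex.

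**Figure D1:**
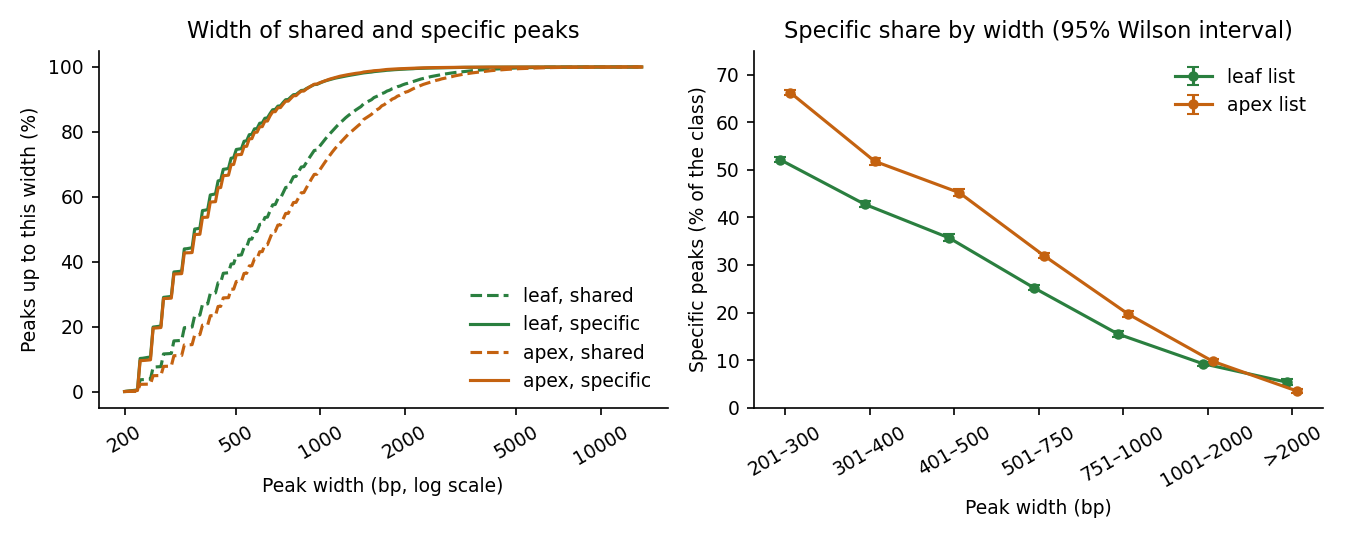
Left, cumulative percent of peaks up to a given width (bp, log scale) for shared (dashed) and specific (solid) peaks of the leaf (green) and apex (orange) lists; the specific curves nearly coincide, with medians of 350 and 375 bp. Right, percent of peaks of each width class that were specific, with 95% Wilson intervals; it falls from 52.1% to 5.35% in leaves and from 66.2% to 3.49% in apices.

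Counted in bases, 54.8 Mb lay in peaks of both lists, which is 64.3% of the 85.3 Mb covered by leaf peaks and 54.8% of the 100.02 Mb covered by apex peaks. The apex list covered 14.8 Mb more than the leaf list. Of this excess, 9.83 Mb (66.6%) came from shared sites, where apex peaks covered 77.3 Mb and leaf peaks 67.5 Mb. The other 4.93 Mb (33.4%) came from specific peaks, 22.7 Mb in apices and 17.8 Mb in leaves. At shared sites 22.5 Mb were covered by the apex peak alone and 12.7 Mb by the leaf peak alone. The larger area of the apex list was therefore more a matter of wider peaks at sites open in both tissues than of additional sites.

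The gain of width was measured at 71015 sites where 1 leaf peak met 1 apex peak and neither met another. These pairs held 84.3% of the shared leaf peaks and 85.9% of the shared apex peaks. The apex peak was wider at 59.4% of the pairs (59.1 to 59.8), the leaf peak at 36.5%, and both had the same width at 4.13%. The median width was 575 bp in leaves and 652 bp in apices. The apex peak exceeded its leaf partner by a median of 63 bp (quartiles −100 and 300), or 0.15 on the log2 scale. Changes in both directions were thus common, with a modest balance toward the apex. At 9969 pairs (14%) the apex peak was at least 2 times as wide, and at 5012 pairs (7.06%) the leaf peak was. When each width was expressed as a percentile of its own list, the apex peak ranked higher at 53.2% of the pairs (52.8 to 53.5). Ranking within each list takes out a general difference in width by construction, so this lower share does not explain the preference. What the preference depends on was not tested.

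The apex gain was symmetric. Its median was 23 bp at the edge with the lower coordinate and 23 bp at the other edge, with means of 52.7 and 52.8 bp. Among pairs wider in the apex, 62.9% extended beyond the leaf peak at both edges. Among pairs wider in the leaf, 46.5% extended beyond the apex peak at both edges. The leaf peak lay wholly inside the apex peak at 38.4% of all pairs (38.04 to 38.8), and the apex peak inside the leaf peak at 17.7% (17.4 to 17.9). At 43.7% the peaks were displaced against each other. The midpoints of a pair lay a median of 92 bp apart, and 74.7% of the pairs shared at least 50% of both peaks. The midpoints thus lay near each other at most of these sites, which is partly built in because the pairs had to overlap. Where the signal lies within a peak cannot be read from the lists.

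Some wide sites were whole in one tissue and broken up in the other. A leaf peak met at least 2 apex peaks in 3518 cases (2.86% of the list, 2.77 to 2.95), and these leaf peaks had a median width of 1875 bp. The converse was more frequent: 4836 apex peaks (3.67%, 3.57 to 3.77), with a median width of 2025 bp, met at least 2 leaf peaks. A single leaf peak met up to 5 apex peaks and a single apex peak up to 7 leaf peaks.

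The 3 largest apex gains were leaf peaks inside much broader apex peaks. On chromosome 3D a leaf peak of 475 bp (489157983 to 489158457) lay inside an apex peak of 8125 bp (489157329 to 489165453), a gain of 7650 bp. On 7A a leaf peak of 975 bp (672069424 to 672070398) lay inside an apex peak of 8350 bp (672068798 to 672077147). On 4D a leaf peak of 275 bp (427925287 to 427925561) lay inside an apex peak of 6800 bp (427923544 to 427930343). In each of these the leaf peak was shared over its full length.

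The opposite case occurred at similar sizes. On 3D a leaf peak of 8800 bp (18792123 to 18800922) held an apex peak of 750 bp (18799555 to 18800304). A leaf peak of 7549 bp on 4B (668810039 to 668817587) overlapped an apex peak of 1500 bp (668809794 to 668811293) by 1255 bp. A leaf peak of 6626 bp on 2A (557045705 to 557052330) overlapped an apex peak of 875 bp (557045554 to 557046428) by 724 bp. In the pairs on 4B and 2A the apex peak covered 1 edge of the leaf peak and reached slightly beyond it.

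Among specific peaks, the widest of the leaf list measured 8375 bp on 6A (597335461 to 597343835), 8225 bp on 2D (613340515 to 613348739) and 7000 bp on 1B (548898722 to 548905721). The nearest apex peaks lay 3692, 3753 and 615 bp away. The widest apex-specific peaks were shorter, at 6525 bp on 2B (341068067 to 341074591), 6350 bp on 2A (55852502 to 55858851) and 6052 bp on 7A (116873001 to 116879052). Their nearest leaf peaks lay 2308, 15373 and 888 bp away. All positions are counted from 1 in the coordinates of the lists.

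Most specific peaks were not shoulders of a shared site. The nearest apex peak lay a median of 6316 bp from a leaf-specific peak (quartiles 1433 and 42501). From an apex-specific peak the nearest leaf peak was 4131 bp away (1157 and 19109). Within 500 bp there was a peak of the other list for 11.2% of leaf-specific and 11.2% of apex-specific peaks. More than 100000 bp of chromosome without any peak of the other list lay on both sides of 5768 leaf-specific peaks (14.9%) and 4455 apex-specific peaks (9.03%). Leaf-specific peaks were thus more often remote from the other list, although that list was the longer one. The limit of 1 bp decided few cases: 200 of 88016 overlaps had at most 25 shared bp, and 149 leaf-specific and 142 apex-specific peaks lay within 25 bp of the other list.

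Position along the chromosome separated the 2 kinds of specific peaks. Apex-specific peaks were concentrated toward the ends, and leaf-specific peaks were spread further into the middle. The outer 20% of the length at either end held 66.6% of apex-specific peaks (66.2 to 67.04) and 54.9% of leaf-specific peaks (54.4 to 55.4), a difference of 11.8 percentage points (11.1 to 12.4). It was 6.40 points (5.90 to 6.90) where shared peaks had to overlap by 50% of both, and 7.72 points (7.10 to 8.33) for peaks within 50 Mb of an end. Shared peaks lay between them, at 59.8% of the leaf list and 59.2% of the apex list. Over all peaks the outer 20% held 62.0% of the apex list and 58.2% of the leaf list. The distal share of apex-specific peaks was above that of leaf-specific peaks on 21 of 21 chromosomes, by 11.7 ± 2.60 points (SD over 21 chromosomes). The smallest difference was 6.27 points on 1A and the largest 18.1 points on 6B. Chromosomes are not replicates of a tissue, and their SD shows only how even the pattern was within these lists. The median distance to the nearer end was 83.3 Mb for apex-specific and 116 Mb for leaf-specific peaks.

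The change was gradual. In the outermost 2.5% of the length at either end, 43.9% of apex peaks (43.1 to 44.6) were specific, between 10% and 20% of the length 37.4% (36.9 to 38.0), and in the innermost class, 40% to 50%, 30.7% (29.9 to 31.4). The leaf list ran the other way from 10% inward. Of its peaks 30.9% (30.2 to 31.7) were specific in the outermost class, 29.3% (28.7 to 29.8) between 10% and 20%, and 37.1% (36.3 to 37.9) in the innermost class. On 21 of 21 chromosomes the apex-specific share was higher in the outermost than in the innermost class, by 13.1 ± 4.16 points. The leaf-specific share was lower there on 18 of 21 chromosomes, by a mean of 6.23 ± 5.24 points. The exceptions were 1A, 1D and 5B.

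Shared peaks fell from 13.8 (leaf) and 13.2 (apex) per Mb in the outermost class to 3.34 in both at the centre. Their near equality is given by the definition, since most are pairs of 1 leaf and 1 apex peak. Apex-specific peaks fell from 10.3 to 1.48 per Mb, whereas leaf-specific peaks fell from 6.19 to 1.97. For each leaf-specific peak there were 1.67 apex-specific peaks in the outermost class, 1.42 between 10% and 20%, 1.12 between 20% and 30%, 0.921 between 30% and 40%, and 0.750 in the innermost class. Over all peaks the ratio of apex to leaf was 1.18, 1.11, 1.03, 0.968 and 0.907 in these classes. With shared peaks near equal, the ratio of specific peaks is that of all peaks in magnified form. With the apex list cut to the leaf number the ratio still fell, from 1.39 to 0.612, and it passed below 1 between 20% and 30% of the length (0.913) in place of 30% to 40%. The fall from the ends to the middle thus stood in lists of equal length, while the place where the tissues balance did not.

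**Figure D2:**
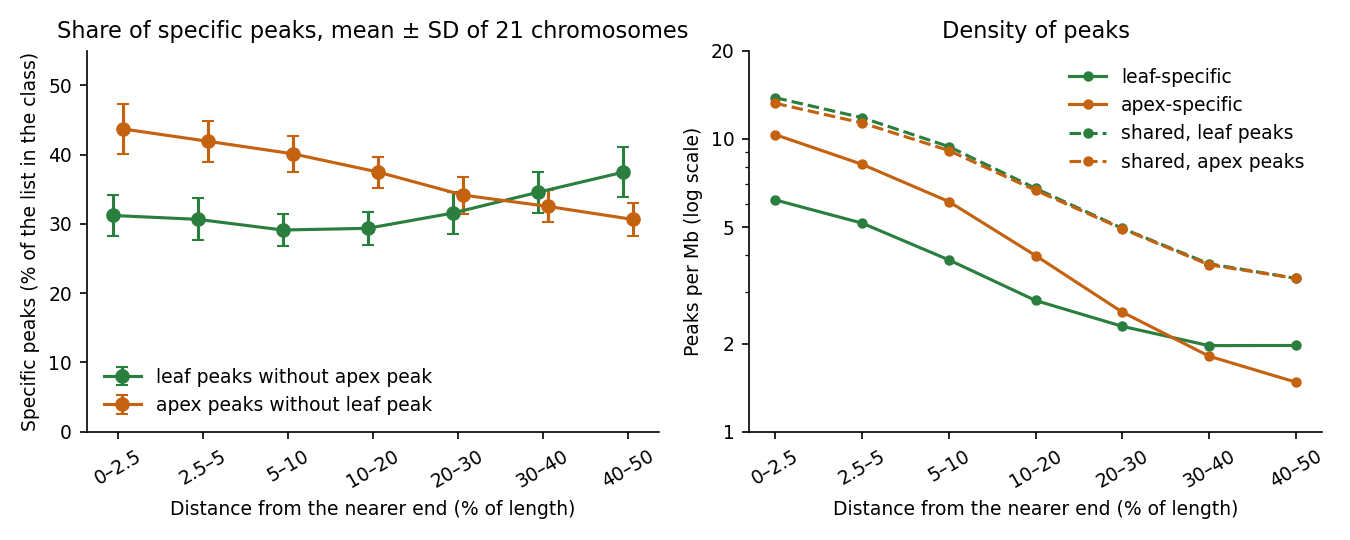
Left, percent of leaf peaks (green) and apex peaks (orange) that were specific, by distance from the nearer chromosome end in percent of the length (points, mean of 21 chromosomes; bars, SD). Right, specific (solid) and shared (dashed) peaks per Mb on a log scale; the shared lines run from 13.8 and 13.2 to 3.34 per Mb, near each other by definition, and the specific lines cross between the classes from 20% to 40%.

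The same order appeared when distance was counted in Mb. Within 1 Mb of an end 45.6% of apex peaks (42.5 to 48.7) were specific, and beyond 200 Mb 31.9% (31.3 to 32.4). Leaf values were 35.0% (31.8 to 38.3) within 1 Mb, 29.4% (28.8 to 29.99) between 50 and 100 Mb, and 35.4% (34.9 to 36.0) beyond 200 Mb. The leaf list therefore had a shallow minimum between the ends and the middle. The apex values fell inward except between 5 and 20 Mb, where they were level at 42.9% (5 to 10 Mb, 41.5 to 44.2) and 42.97% (10 to 20 Mb, 41.98 to 43.97).

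The gradient of the apex list was also present within width classes up to 2000 bp. Among apex peaks of up to 300 bp, 73.8% (72.7 to 74.9) were specific in the outer 5% and 59.3% (58.4 to 60.3) in the middle 60%. Among those above 750 and up to 1000 bp the shares were 25.7% (24.3 to 27.2) and 14.9% (14.0 to 15.8). Above 2000 bp it ran the other way, with 2.499% (1.89 to 3.30) in the outer 5% and 4.54% (3.68 to 5.57) in the middle. In the leaf list the narrowest class rose from 49.7% (48.4 to 50.9) in the outer 5% to 55.8% (54.9 to 56.7) in the middle. Above 750 and up to 1000 bp the leaf values were 15.6% (14.3 to 17.0) and 16.3% (15.4 to 17.3), with overlapping intervals.

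The gain of width at shared sites followed the same axis. In the outermost 2.5% the apex peak was wider at 65.9% of 7823 pairs, with a median gain of 125 bp. Between 10% and 20% it was wider at 60.2% of 16098 pairs, with a median of 75 bp, and in the innermost class at 52.2% of 8232 pairs, with a median of 25 bp. On the log2 scale the mean ratio of apex to leaf width fell from 0.32 to 0.05. It was higher in the outermost than in the innermost class on 21 of 21 chromosomes, by 0.26 ± 0.09 (SD). Leaf peaks at these pairs had a median of 550 bp in the outermost and 575 bp in the innermost class, whereas apex peaks had 725 and 612.5 bp. The change thus lay mainly in the apex widths.

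The fall inward was present in each of 5 classes of mean pair width, without following their order. In the widest class the apex peak was wider at 71.02% of pairs in the outer 5% (69.4 to 72.5) and at 60.6% in the middle 60% (59.2 to 61.9). In the next widest class the shares were 68.1% (66.4 to 69.8) and 54.6% (53.3 to 55.9), in the middle class 65.9% (64.1 to 67.6) and 53.8% (52.5 to 55.1), and in the second narrowest 63.2% (61.3 to 64.9) and 52.4% (51.2 to 53.7). In the narrowest class they were 57.9% (56.1 to 59.8) and 51.1% (49.9 to 52.3). Expressed as percentiles of each list, widths were higher in the apex at 60.1% of pairs in the outermost class (59.0 to 61.2) but at 46.03% in the innermost (44.95 to 47.1). Percentiles were taken within each whole list, specific peaks included, so their level depends on the make-up of each list as well as on width. Only the fall is therefore read on that scale. In bp the apex peak was the more often wider one in the innermost class too, at 52.2% of pairs against 43.1% for the leaf peak.

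**Figure D3:**
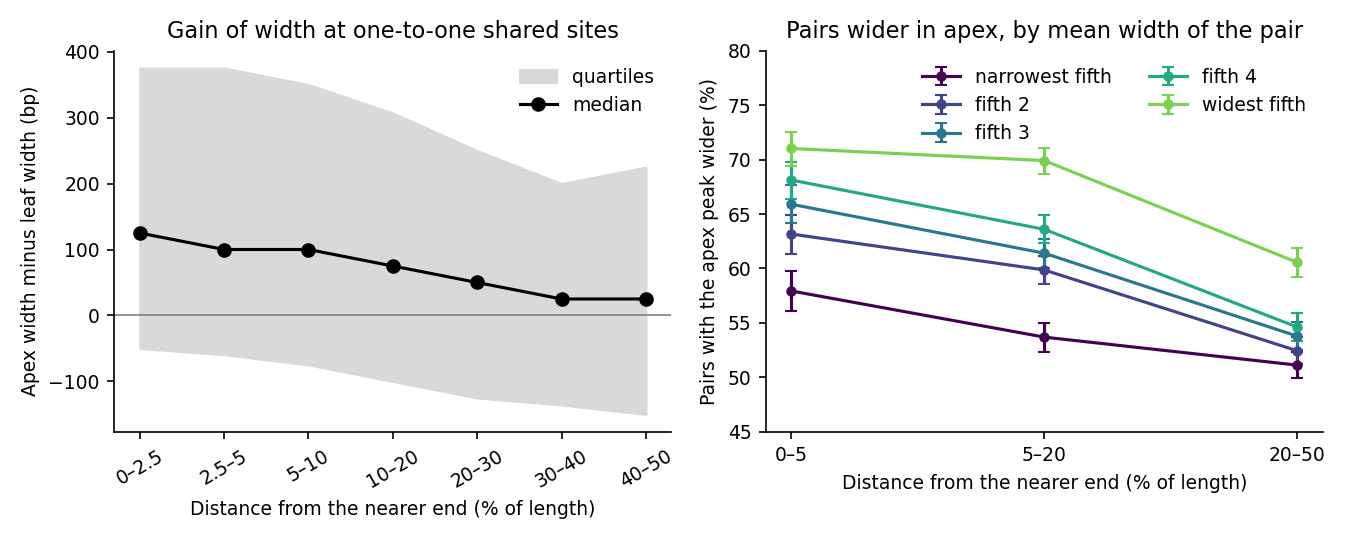
Left, apex width minus leaf width (bp) at one-to-one shared sites by distance from the nearer end in percent of the length; the line is the median, falling from 125 to 25 bp, and the grey band spans the quartiles. Right, percent of pairs with the apex peak wider (95% Wilson interval; axis from 45%) in 3 distance zones for 5 classes of mean pair width; it falls inward in each class, from 71.02% to 60.6% in the widest.

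Single chromosomes differed less than zones within them. Apex peaks outnumbered leaf peaks on each of the 21 chromosomes, by a factor of 1.02 on 4B (5384 against 5280) to 1.12 on 7A (6612 against 5900). The apex-specific share ranged from 35.3% on 4A (34.04 to 36.5) to 40.9% on 7D (39.7 to 42.03). The leaf-specific share ranged from 29.2% on 2A (28.1 to 30.3) to 33.4% on 6B (32.2 to 34.6). On 21 of 21 chromosomes the apex-specific share was the higher one, by 2.29 points on 4B to 8.75 points on 7A. This largely restates the larger number of apex peaks on each chromosome, since shared peaks are near equal in number by definition. The share of pairs wider in the apex was more even, from 57.3% on 1A to 60.9% on 3B, with an SD of 0.972 points.

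Chromosomes of a homoeologous group lay close together in the apex list in some groups and not in others. Group 7 had apex-specific shares of 39.3% on 7A, 40.4% on 7B and 40.9% on 7D. Group 4 had 35.3% on 4A, 35.6% on 4B and 35.6% on 4D, so groups 4 and 7, which were chosen after their values were seen, did not overlap. In other groups the spread was as large as over all chromosomes, with SDs of 1.57 points in group 1 and 1.70 in group 3 (35.3% on 3A, 38.7% on 3B) against 1.60 over the 21 chromosomes. In the leaf list groups 4 and 7 overlapped, with 32.8%, 33.3% and 30.5% on 4A, 4B and 4D against 30.5%, 33.2% and 33.4% on 7A, 7B and 7D. On 1B, where the cultivar carries rye DNA, the lists held 4199 leaf and 4552 apex peaks, the fewest of any chromosome in each list. Its specific shares were 32.3% and 39.3%, against 30.02% and 36.6% on 1A and 31.3% and 36.5% on 1D. Over the 7 B chromosomes the leaf-specific share had a mean of 32.6% (30.8% to 33.4%). The apex-specific share had a mean of 37.8% (35.6% to 40.4%), with the highest value on 7B. The leaf-specific share of 1B was thus near the mean of its subgenome. The part of the rye arm in the values of 1B was not tested.

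**Figure D4:**
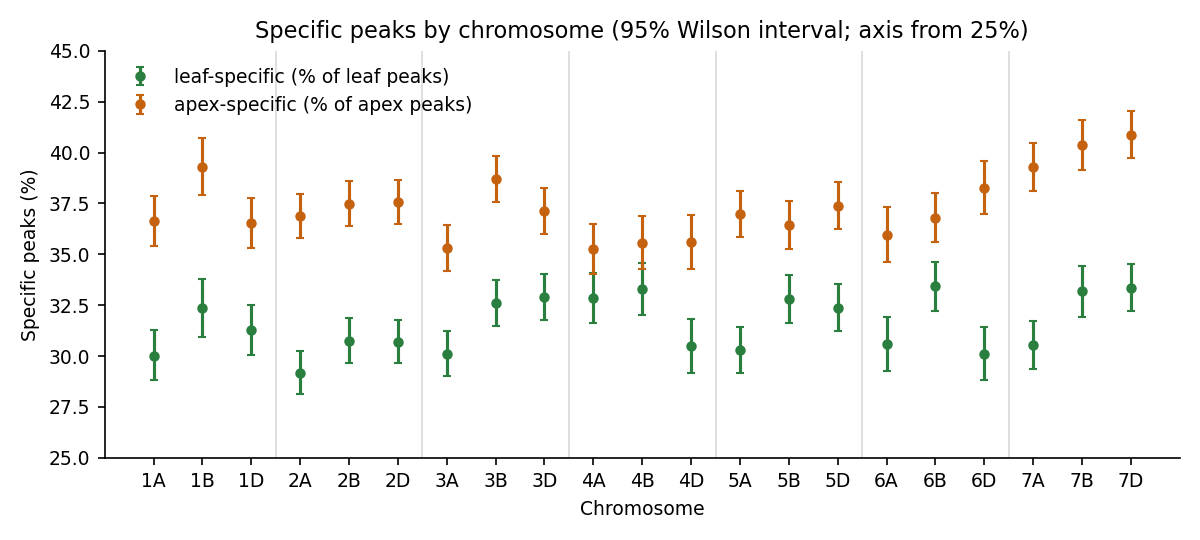
Percent of leaf peaks (green) and of apex peaks (orange) that were specific on each of the 21 chromosomes, with 95% Wilson intervals; the vertical axis starts at 25%. Each apex value lies above the leaf value of the same chromosome, by 2.29 points on 4B to 8.75 points on 7A, which largely follows from the larger number of apex peaks.

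The subgenomes shared in both kinds of specific peaks almost equally by number, near their shares of all peaks. Leaf-specific peaks were 32.6% on A, 33.8% on B and 33.6% on D, and apex-specific peaks 33.3%, 32.8% and 33.9%. All leaf peaks were 33.7%, 32.8% and 33.5%, and all apex peaks 33.9%, 32.5% and 33.6%. Per Mb, specific peaks were densest on D. There were 3.30 leaf-specific peaks per Mb on D, against 2.56 on A and 2.54 on B. For apex-specific peaks the densities were 4.23 on D, 3.33 on A and 3.13 on B. This is not particular to specific peaks. All peaks were near equal in number over the subgenomes, and the D chromosome was the shortest of each group, so all peaks were densest on D too. As a share of the leaf peaks of a subgenome, leaf-specific peaks made up 30.5% on A (30.01 to 30.9), 32.6% on B (32.1 to 33.03) and 31.7% on D (31.2 to 32.1). The B share was above the A share in 7 of 7 homoeologous groups, by 2.11 ± 0.841 points (SD). Apex-specific peaks made up 36.7% on A (36.2 to 37.1), 37.8% on B (37.3 to 38.2) and 37.7% on D (37.3 to 38.2), with B above A in 6 of 7 groups, by 1.19 ± 1.38 points. The difference of D from the mean of A and B depended on the definition. It was 0.177 points in leaves (−0.372 to 0.729) and 0.496 points in apices (−0.0566 to 1.05). With an overlap of 50% of both peaks it was 0.952 (0.363 to 1.54) and 1.05 (0.488 to 1.62), and without group 1 it was 0.763 in apices (0.171 to 1.36). With peaks under 500 bp left out of both lists it had the opposite sign, at −1.06 (−1.82 to −0.293) and −1.44 points (−2.20 to −0.684). In that setting a peak also counted as specific when its only partners were under 500 bp, so the sign is not a property of wide peaks alone. Averaged over 5 width classes of the full lists, the difference was 0.760 points in leaves and 1.08 in apices. In width gain the subgenomes were alike to within 1 point: the apex peak was wider at 59.4% of pairs on A, 59.8% on B and 59.03% on D.

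In windows of 1 Mb the apex surplus lay mainly toward the chromosome ends. Of 13515 windows with a peak, 6092 (45.1%) had more apex peaks, 5156 (38.2%) more leaf peaks and 2267 (16.8%) equal numbers. In the outer 20% at either end, apex peaks prevailed in 57.9% of 5533 windows and leaf peaks in 29.9%. In the middle 60%, leaf peaks prevailed in 43.9% of 7982 windows and apex peaks in 36.2%. A surplus of at least 10 apex peaks occurred in 352 outer and 19 middle windows, and a surplus of at least 10 leaf peaks in 41 outer and 32 middle windows.

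The 3 windows with most apex-specific peaks lay within 15 Mb of a chromosome start. On 7D from 4000001 to 5000000 there were 114 apex peaks, 53 of them specific, against 81 leaf peaks with 15 specific. On 2D from 13000001 to 14000000 the apex had 92 peaks (47 specific) and the leaf 63 (14 specific). On 2A from 14000001 to 15000000 the apex had 79 (37 specific) and the leaf 64 (17 specific). These windows were rich in peaks of both tissues. By difference of numbers, the window on 7B from 735000001 to 736000000 joined the first 2 of them, with 52 apex peaks (32 specific) against 23 leaf peaks (3 specific).

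The largest difference in favour of the leaf was a single window. That window, on 5B from 691000001 to 692000000, had 66 leaf peaks, 56 of them specific, against 14 apex peaks with 3 specific. The neighbouring windows had 17 leaf and 14 apex peaks on the lower side and 15 and 27 on the upper side. Within the window, 28 leaf-specific peaks fell between 400 and 500 kb from its start, and 25 between 100 and 300 kb. They measured 221 to 2959 bp with a median of 457 bp, and the leaf peaks covered 52.0 kb against 8.59 kb for the apex. These peaks stood apart in another respect, noticed after their values were seen: 28 of the 56 (50%, 37.3 to 62.7) had a width that was not a whole multiple of 25 bp, against 9.81% (9.52 to 10.1) of all leaf-specific peaks. No source used here says how the authors' processing gave such widths, and the part of that step in this cluster was not tested.

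**Figure D5:**
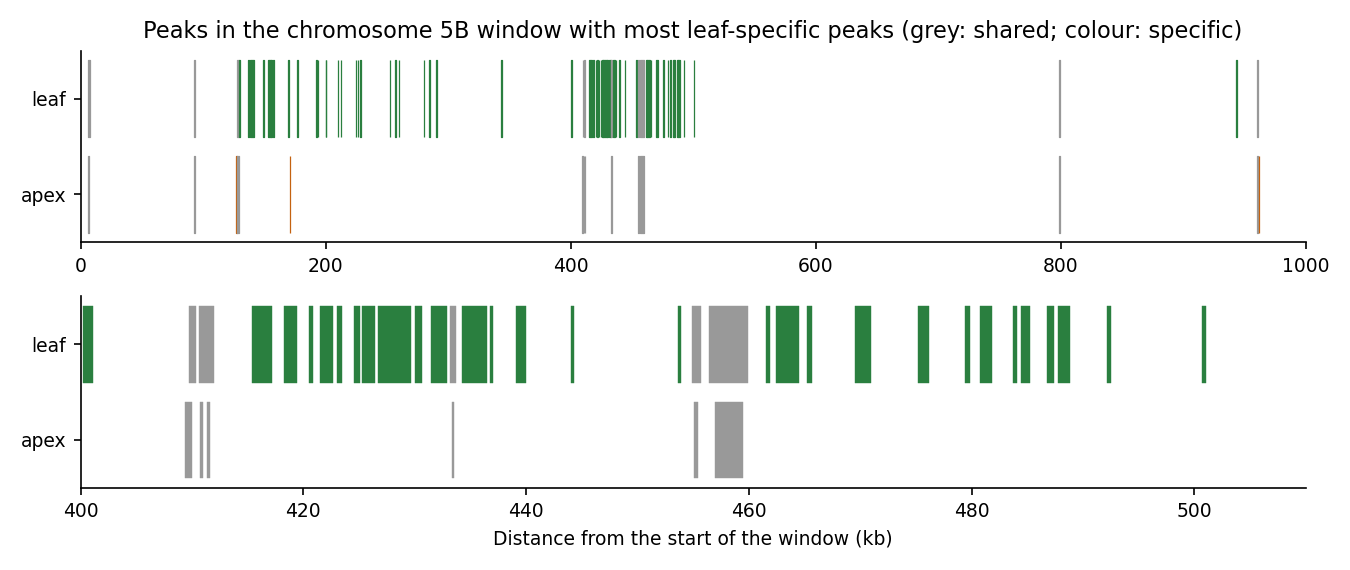
Peaks of the leaf list (upper track) and apex list (lower track) in the 1 Mb window of chromosome 5B with most leaf-specific peaks, by distance in kb from the start of the window; grey peaks are shared, green and orange ones specific. The upper panel shows the whole window and the lower panel 400 to 510 kb, where most of the 28 leaf-specific peaks of the densest 100 kb stand between a few shared sites.

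Other leaf-rich windows were less extreme. On 1D from 493000001 to 494000000 the leaf had 47 peaks (25 specific) and the apex 40 (17 specific). On 2D from 639000001 to 640000000 the numbers were 39 (25 specific) and 25 (11 specific). By difference of numbers, 3B from 29000001 to 30000000 had 26 leaf peaks (22 specific) and 6 apex peaks (2 specific). In the middle of 6B, from 292000001 to 293000000, there were 22 leaf peaks (20 specific) and 2 apex peaks, neither of them specific.

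Long unbroken series of specific peaks were more frequent in the leaf. A run was defined as neighbouring specific peaks of one list with no peak of the other list between them. There were 24 leaf runs and 5 apex runs of at least 10 peaks, although apex-specific peaks were the more numerous. The longest leaf runs had 22 peaks over 274 kb on 2D (639716689 to 639990823) and 18 peaks over 224 kb on 5B (691176786 to 691401090). The longest apex runs had 12 peaks each, over 71.0 kb on 4D (497089005 to 497160049) and over 737 kb on 7B (10893094 to 11630440). Runs of at least 5 peaks numbered 480 in the leaf and 572 in the apex list and held 7.41% of leaf-specific and 6.66% of apex-specific peaks. Of these runs, 49.6% and 81.5% lay in the outer 20% of the length.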

How the data were processed

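ATAC-seq peak lists of leaves and shoot apices were used, 1 list for the 2 libraries of each tissue. Trimmomatic 0.36, Bowtie2, MACS2 and bedtools were used by the authors, per the submitters' processing notes. The deposited lists hold positions only. Sources used here do not give the genome build, the peak threshold or the way replicates were combined. Both lists were free of repeats and of overlapping peaks. Widths were whole multiples of 25 bp for 89.3% of leaf and 95.5% of apex peaks. Starts were taken as counted from 0, and 1 was added for printing. The end of the last peak of the 2 lists gave each chromosome's length, and distance was measured from a peak's midpoint. Overlaps, widths, windows of 1 Mb and runs were computed with Python 3.11.15, numpy 2.4.6 and pandas 2.3.3, and 95% Wilson intervals with scipy 1.17.1. Intervals of differences between shares were built from the Wilson limits of each share by Newcombe's method. For D against the mean of A and B that method was extended to the subgenomes' shares. The overlap functions were tested on simulated data. The tissues were not compared by a test, since each has 1 list; single chromosomes were examined as outliers within a subgenome by Dixon's test. Regions were named by rank: the 3 widest or most changed, the 3 leading windows in each direction, and the 2 longest runs. The comparison, its classes and the naming rule were chosen with earlier results of these data known. The other 2 lists were not used here.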

Additional observations from a re-analysis of the deposited data

Results flagged for a closer look

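Each of 15 sets of 7 chromosomes (5 measures in the A, B and D subgenomes) was examined for a chromosome far from the others by Dixon's test, and 3 stood out beyond its 95% critical value. Chance alone gives about 1 in 20. The leaf-specific share on 4A was 32.8%, above the next A chromosome at 30.6%. The leaf-specific share on 2B was 30.8%, below the next B chromosome at 32.3%. The apex-specific share on 7A was 39.3%, above the next A chromosome at 36.99%. The largest ratio of gap to range among them was 0.618.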

How the results depend on the processing

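With 1 list per tissue and unknown depth, leaving out a replicate was not possible. No paired analysis was possible because each tissue has a single list. Leaf-specific and apex-specific peaks numbered 67482 and 76399 when an overlap had to cover 50% of both peaks. They numbered 19043 and 28812 when peaks under 500 bp were left out of both lists, where fewer peaks enter. There, and wherever that setting is used below, a peak also counted as specific when its only partners were under 500 bp. The numbers of leaf-specific and apex-specific peaks stayed within 1.5 times when peaks up to 500 bp apart also counted as shared (34502 and 43819). The same held with the apex list cut to the leaf number (41058 and 42928). It also held, chosen after the data were seen, among peaks whose width is a whole multiple of 25 bp (38475 and 55777). The apex peak was wider at 58.2% of one-to-one pairs that shared 50% of both peaks, at 53.2% by percentile of width, at 61.03% with the apex list cut and at 60.03% with whole multiples of 25 bp. Cutting the apex list to its widest peaks takes out pairs with a narrow apex peak, which favours the apex by construction. Without each homoeologous group in turn the apex peak was wider at 59.3 to 59.5% of pairs. The distal share of apex-specific peaks exceeded that of leaf-specific peaks by 9.30 points in the outer 10%, 7.72 within 50 Mb of an end, 6.40 with an overlap of 50%, 12.7 among peaks of at least 500 bp and 9.53 with whole multiples of 25 bp, and by 11.5 to 11.9 without each group. The difference of D from the mean of A and B in the leaf-specific share was 0.952 points with an overlap of 50%, 0.760 averaged over 5 width classes and −1.06 among peaks of at least 500 bp. Without each group it ranged from −0.0786 (without group 3) to 0.575, and it was −0.0709 without group 7. In the apex-specific share the values were 1.05, 1.08 and −1.44, and 0.296 to 0.763 without each group. Part of these changes is built into the settings. Asking for an overlap of 50% can only raise the numbers of specific peaks. Leaving peaks out of a list, by width or by whole multiples of 25 bp, removes partners of peaks in the other list. What else contributed to these changes was not tested.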

Other observations

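The leaf-specific share differed between the ends of a chromosome as numbered. From the start to the midpoint 34.7% of leaf peaks (95% Wilson interval 34.3 to 35.2) were specific, and from the midpoint to the end 29.4% (29.1 to 29.7). The start side was higher on 18 of 21 chromosomes, by 5.98 ± 5.25 points (SD). In the apex list the start side was at 36.5% (36.1 to 37.0) and the end side at 37.9% (37.6 to 38.2), with the start side higher on 6 of 21 chromosomes. The outermost 2.5% alone gave 32.3% (31.1 to 33.4) at the start and 29.7% (28.7 to 30.8) at the end for the leaf list.

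Specific peaks also differed in how they lay among peaks of their own list. The nearest other leaf peak was a median of 3863 bp from a leaf-specific peak and 2983 bp from a shared leaf peak. In the apex list the order was the opposite, with 2088 bp for specific and 2421 bp for shared peaks.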
